A study of Mus musculus with 12 samples.

Results

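Cytosolic ribosomal protein genes were followed through 12 libraries of polyA RNA, prepared from embryonic stem (ES) cells of a female mouse line. A gene was a member if its symbol was Rpl or Rps followed by a number and at most 2 further characters, or was Rplp0, Rplp1, Rplp2 or Rpsa. This gave 92 of 55487 listed genes. Of these, 55 encode or resemble large subunit proteins and 37 small subunit proteins, 85 are annotated as protein-coding and 7 as pseudogenes, and 4 lie on the X chromosome. The cells were C57BL6/CAST hybrids, whose parental chromosomes differ at many positions, so that part of the reads could be divided between genome 1 and genome 2. The libraries fall into 4 groups of 3 replicates: SIRT7-KO cells at day 7 (KO day 7), WT cells at day 7 (WT day 7), SIRT7-KO cells at day 0 (KO day 0) and WT cells at day 0 (WT day 0). By the protocol, day 0 cells were kept with LIF, a cytokine that keeps ES cells from differentiating, and day 7 cells were harvested 7 days after its removal. A treatment label given for each library does not follow the day. It reads LIF for KO replicates 1 and 3 and WT replicate 2 on both days, and none for the other libraries. The groups here were taken from genotype and day. The comparisons ask how these genes respond to the loss of Sirt7 on each day and to 7 days of LIF withdrawal, as the protocol gives it, in each genotype.

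Ribosomal proteins surround and fold the ribosomal RNAs of the large and the small subunit, and nearly all are needed in equal numbers for each ribosome. Their mRNAs are among the most abundant of a growing cell. Most carry a pyrimidine tract at the 5′ end (a TOP motif) through which the kinase mTORC1 controls their translation. Mammals have few functional copies of each gene but many processed pseudogenes, and a small number of expressed paralogs, some of them on autosomes with a parent gene on the X chromosome.

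Sequences of 3 kinds carry the results given further on. The coding sequences of the X-linked Rpl39 (transcript Rpl39-201) and of its autosomal paralog Rpl39l on chromosome 16 (Rpl39l-201), read from GENCODE M21 transcripts, are shown because the paralog was near 0 at day 7. Each has 156 bases, and capitals mark the 23 bases at which they differ (85.3% identity).
Rpl39l: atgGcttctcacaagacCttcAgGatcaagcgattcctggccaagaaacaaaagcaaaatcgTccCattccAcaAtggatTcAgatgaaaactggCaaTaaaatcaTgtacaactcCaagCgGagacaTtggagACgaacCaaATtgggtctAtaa
Rpl39: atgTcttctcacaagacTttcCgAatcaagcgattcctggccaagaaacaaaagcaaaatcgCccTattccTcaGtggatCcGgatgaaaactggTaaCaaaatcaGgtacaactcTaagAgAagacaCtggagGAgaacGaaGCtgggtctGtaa
The longest stretch without a difference has 38 bases, so reads of both genes can in part be told apart. The 2 following sets show the exons behind a shift between transcripts. In Rpl12 (chromosome 2, GRCm38, plus strand) the transcript Rpl12-201 ends its first exon 121 bases later than the main transcript Rpl12-203. The first exon from the start codon on (chr2:32961803-32961960) is given with those extra bases in capitals. GENCODE M21 annotates Rpl12-201 as a target of nonsense-mediated decay, the pathway that degrades mRNAs with an early stop.
Rpl12-201: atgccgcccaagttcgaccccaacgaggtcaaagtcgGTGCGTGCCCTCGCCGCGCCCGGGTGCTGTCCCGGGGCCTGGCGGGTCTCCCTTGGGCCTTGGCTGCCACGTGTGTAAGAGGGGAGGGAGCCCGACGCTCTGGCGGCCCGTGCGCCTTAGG
In Rps24 (chromosome 14, plus strand) the transcript Rps24-202 includes a 20-base exon (chr14:24495430-24495449) whose first codon is a stop, and Rps24-210 skips it and ends at a later stop codon. The end of the coding sequence is given with that exon in capitals.
Rps24-202: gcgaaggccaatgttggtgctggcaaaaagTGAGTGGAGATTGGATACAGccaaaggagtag
Rps24-210: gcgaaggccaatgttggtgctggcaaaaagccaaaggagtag
Promoter windows were at hand in RefSeq (GRCm38.p6, 250 bases before to 50 after a start) for 67 of the 92 members, with 79 starts. The letters CGGAAG on either strand, the core that the transcription factor GABP binds, occurred in 46 of the 79 windows (58.2%), against 16.9% of all 32851 windows. The YY1 core GCCATNTT occurred in 21.5% of the members' windows against 6.05% of all. The E-box CACGTG occurred in 10.1% of the members' windows against 7.15% of all. The TATA box TATAAA occurred in 10.1% of the members' windows, against 13.6% of all. All 4 were searched on both strands. These matches describe the letters only. Rps18 (chr17:33955646-33955745, minus strand), Rps6 (chr4:86857348-86857447, minus strand) and Rpsa (chr9:120127686-120127785, plus strand) are shown, from 80 bases before to 20 after the start, as members with a match, with CGGAAG or its reverse complement in capitals.
Rps18: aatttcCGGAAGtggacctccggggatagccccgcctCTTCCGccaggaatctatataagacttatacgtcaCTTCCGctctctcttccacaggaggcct
Rps6: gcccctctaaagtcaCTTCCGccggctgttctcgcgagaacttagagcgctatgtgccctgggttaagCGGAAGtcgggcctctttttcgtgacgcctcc
Rpsa: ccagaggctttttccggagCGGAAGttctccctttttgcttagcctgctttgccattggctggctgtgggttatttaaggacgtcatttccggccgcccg

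The libraries held 25190483 to 69079368 counts. Nothing in the labels says that replicates came from separate cultures, so p-values measure the spread between these libraries, which may be technical. Sirt7, the targeted gene, was not lower in the libraries labelled knockout. It had 20.1 to 25.1 CPM (counts scaled to a common library size with edgeR's TMM factors) in KO day 7 and 16.9 to 23.8 in KO day 0, against 10.2 to 15.3 in WT day 7 and 8.03 to 12.7 in WT day 0. What was deleted in Sirt7 is not stated in the labels, so each KO group is a group of libraries labelled knockout. Markers followed the days: 8 pluripotency genes summed to 327 to 359 CPM in the day 7 libraries and 6886 to 7236 CPM in the day 0 libraries, and 6 mesoderm and extraembryonic genes summed to 3399 to 4656 CPM in the day 7 libraries and 15.0 to 19.1 CPM in the day 0 libraries. KO day 0 replicate 1 stands apart from its group in the measurements given next, and results that rest on it are given with and without it.

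Ribosomal protein genes took about 6% of all counts at day 7 and about 11 to 12% at day 0. The share was 6.02%, 5.93% and 5.93% in the 3 KO day 7 libraries and 7.07%, 6.33% and 6.50% in WT day 7. It was 9.81%, 11.8% and 11.8% in KO day 0 and 11.5%, 12.4% and 11.8% in WT day 0. The days did not overlap in either genotype, and the one low day 0 value belongs to KO day 0 replicate 1. Group means were 5.96% ± 0.05 in KO day 7 and 6.63% ± 0.39 in WT day 7, 11.1% ± 1.13 in KO day 0 and 11.9% ± 0.47 in WT day 0 (SD, n = 3 each). Without replicate 1 the KO day 0 mean was 11.8%. The 4 X-linked genes together took 0.218% to 0.219% of the counts in KO day 7 and 0.216% to 0.243% in WT day 7, against 0.582% to 0.717% in KO day 0 and 0.656% to 0.707% in WT day 0. Their share was thus lower at day 7 by a larger factor than that of all members. In libraries from whole cultures, fewer cells with high levels and lower levels per cell cannot be told apart. By the protocol LIF withdrawal goes together with the day, and they cannot be told apart. With the treatment label as a covariate, 86 members in KO and 88 in WT passed the test between the days described next. The share of all genes that passed with this covariate is not reported here.

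**Figure D1:**
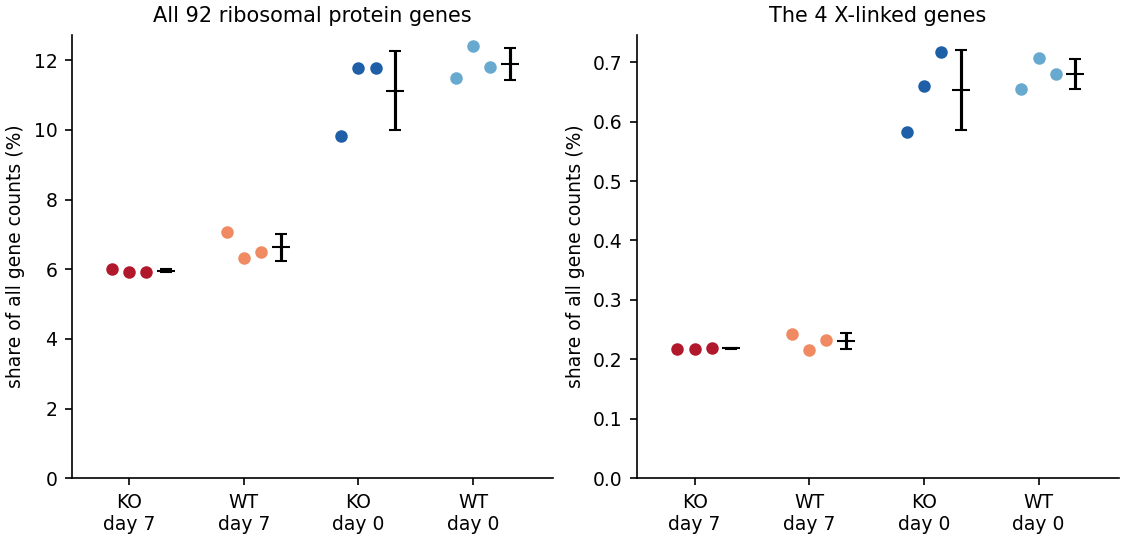
Share of all gene counts (%) held by the 92 ribosomal protein genes (left) and by the 4 X-linked ones (right), by library. Points are libraries, and the bar beside them is the mean ± SD of 3. The day 7 libraries lie below all day 0 libraries, and 1 KO day 0 library lies at 9.81%.

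Between day 7 and day 0 nearly all members fell in both genotypes. In KO cells 86 of the 91 members that passed the filter on low counts fell and none rose (edgeR quasi-likelihood test, adjusted p at most 0.05), where 32.3% of the 19235 genes tested fell. In WT cells 88 of 91 fell and none rose, where 32.1% of all genes fell. The member left out by the filter, the pseudogene Rps12l1, had no count in any library. The median log2 difference of the members was -1.004 in KO and -0.905 in WT, where that of all genes tested was -0.02 and 0.01. Without KO day 0 replicate 1 the KO values were 87 members and a median of -1.08. Members of both subunits fell: in KO 51 of 55 large subunit members fell with a median of -1.004, and 35 of 36 small subunit members with a median of -0.99. In WT the counts were 53 of 55 with a median of -0.91, and 35 of 36 with a median of -0.89.

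**Figure D2:**
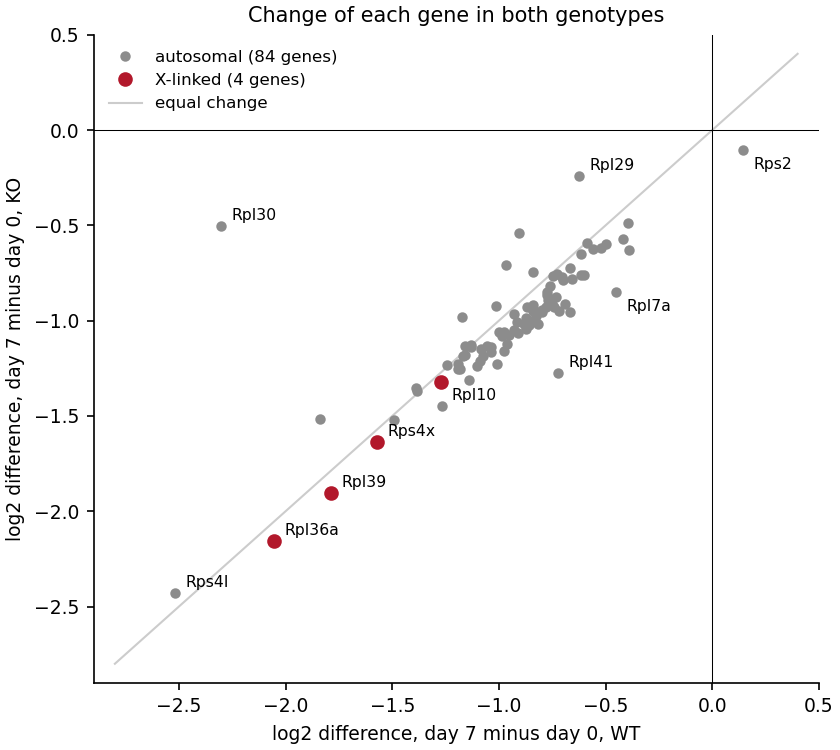
Log2 difference of each gene between day 7 and day 0 in KO (vertical axis) and in WT (horizontal axis), for 88 of the 91 members tested. Rpl10l, Rpl39l and Rpl3l lie far below the range shown. The 4 X-linked genes are red, the line marks equal change, and labelled grey points are Rps4l and genes whose estimates differed between replicates.

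Many other short mRNAs also fell, with medians closer to 0. Of other protein-coding genes with a mean log2 CPM of at least 4 and a mean transcript length under 1000 bases, 264 of 429 fell in KO and 263 in WT (61.5% and 61.3%), with median log2 differences of -0.58 and -0.57. For genes of 2000 bases or more the medians were 0.31 in KO and 0.40 in WT. The 67 members shorter than 1000 bases had medians of -1.01 and -0.91. The part of transcript length in the members' change was not tested.

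The stalk proteins Rplp0, Rplp1 and Rplp2 form the arm of the large subunit that recruits translation factors. Rplp1 had 911, 891 and 911 CPM in KO day 7 and 1183, 1053 and 1007 CPM in WT day 7, against 1593, 2280 and 2089 CPM in KO day 0 and 2166, 2319 and 2248 CPM in WT day 0. No day 7 library reached the lowest day 0 library. The log2 difference was -1.14 in KO (SE 0.11, adjusted p = 4.72e-06) and -1.05 in WT (SE 0.11, adjusted p = 8.26e-06). Rplp2 fell by 1.13 on the log2 scale in KO and in WT alike. Rplp0, often used as a reference gene, fell less, by 0.65 in KO (adjusted p = 3.35e-05) and 0.61 in WT (adjusted p = 4.91e-05).

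Rpl5 and Rpl11, which as free proteins bind and inhibit the ubiquitin ligase Mdm2, fell by 0.87 and 1.02 in KO and by 0.73 and 0.88 in WT on the log2 scale. Rps6, the classical substrate of the kinase downstream of mTORC1, had 480, 445 and 451 CPM in KO day 7 and 599, 522 and 519 CPM in WT day 7, against 852, 1016 and 1132 CPM in KO day 0 and 1018, 1118 and 1053 CPM in WT day 0. It fell by 1.12 in KO and 0.96 in WT. Rpl38, needed for translation of Hox mRNAs in mouse embryos, fell by 1.14 in KO and 1.13 in WT. Rps27a, made as a fusion with ubiquitin, fell by 1.08 and 0.99. Rpl13a, Rpl32 and Rps18, which like Rplp0 serve as reference genes in quantitative PCR, fell by 0.57, 0.85 and 0.91 in KO and by 0.42, 0.77 and 0.69 in WT. Rps19, mutated in Diamond-Blackfan anaemia in humans, fell by 0.62 in KO and 0.52 in WT. Rpsa, which also serves as a laminin receptor, had 2480, 2438 and 2425 CPM in KO day 7 and 3166, 2751 and 2718 CPM in WT day 7, against 3165, 4278 and 3882 CPM in KO day 0 and 4160, 4369 and 4201 CPM in WT day 0. It fell by 0.62 in KO and 0.56 in WT, and KO day 0 replicate 1 again had the lowest value of its group.

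The 4 X-linked members fell more than most autosomal ones. Rps4x, a small subunit protein (chrX:102184941-102189394, minus strand), had 1307, 1289 and 1292 CPM in KO day 7 and 1518, 1358 and 1388 CPM in WT day 7. In KO day 0 it had 3474, 4090 and 4521 CPM, and in WT day 0 it had 4047, 4364 and 4275 CPM. The days lay far apart in both genotypes, with the low replicate of KO day 0 included.
The log2 difference of Rps4x was -1.64 in KO (SE 0.09, adjusted p = 3.04e-08) and -1.57 in WT (SE 0.09, adjusted p = 3.86e-08). Rpl36a (chrX:134585654-134588062) had 184, 183 and 190 CPM in KO day 7 and 233, 200 and 220 CPM in WT day 7, against 654, 870 and 959 CPM in KO day 0 and 818, 972 and 922 CPM in WT day 0. It fell by 2.16 in KO and 2.06 in WT (adjusted p = 7.44e-08 and 9.83e-08). Rpl39 (chrX:37082520-37085402) fell by 1.90 in KO and 1.79 in WT, and Rpl10 (chrX:74270812-74273135) by 1.319 and 1.271. All 3 encode large subunit proteins. The median over the 4 was -1.77 in KO and -1.68 in WT, where the 87 autosomal members had medians of -0.98 and -0.87. Over all 768 X-linked genes tested the medians were -0.48 in KO and -0.43 in WT, and over 18413 autosomal genes 0.00 and 0.03. These medians are a description, and the difference between the X-linked and the autosomal members was not tested.

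Reads that could be assigned to a parental genome showed that the fall of Rps4x was carried mostly by genome 1. Scaled as CPM, genome 1 gave 68.2, 75.2 and 72.4 in KO day 7 and 82.3, 73.6 and 70.8 in WT day 7, against 680, 840 and 845 in KO day 0 and 813, 904 and 863 in WT day 0. Genome 2 gave 445, 437 and 431 in KO day 7 and 578, 510 and 487 in WT day 7, against 715, 888 and 919 in KO day 0 and 857, 972 and 920 in WT day 0. Both genomes were lower at day 7 in every library, genome 1 far more so. On the log2 scale of group means genome 1 fell by 3.46 in KO and 3.51 in WT, and genome 2 by 0.94 and 0.80. The share of genome 2 was 86.7%, 85.3% and 85.6% in KO day 7 and 87.5%, 87.4% and 87.3% in WT day 7. It was 51.2%, 51.4% and 52.1% in KO day 0, and 51.3% to 51.8% in WT day 0. The widest 95% exact binomial interval was that of KO day 7 replicate 2, 84.7% to 85.9%, and covers counting error only. The log2 ratio of genome 2 to genome 1 rose by 2.51 in KO (SE 0.14, adjusted p = 0.00145) and by 2.70 in WT (SE 0.11, adjusted p = 0.000569), in a test that keeps each library as a block.

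**Figure D3:**
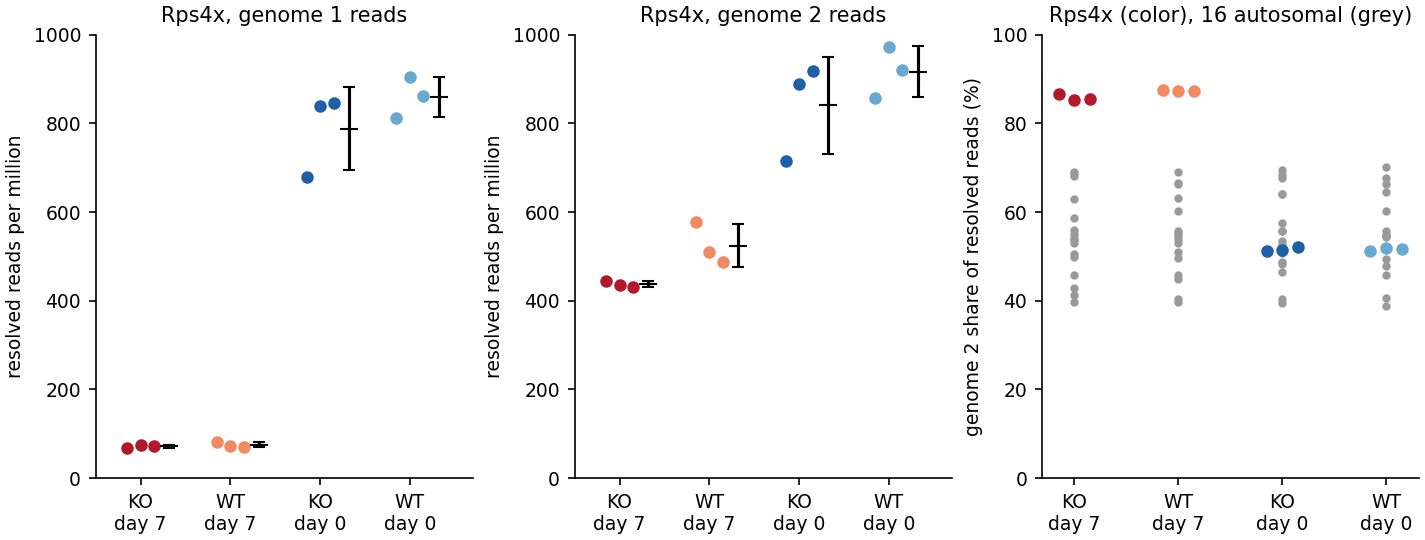
Resolved reads of Rps4x, scaled as CPM, from genome 1 (left) and genome 2 (middle) by library with mean ± SD of 3, and the genome 2 share (right) of Rps4x in each library (color) and of 16 autosomal ribosomal protein genes as group means (grey). The Rps4x share lies above 85% at day 7 and between 51.2% and 52.1% at day 0, while the grey points keep their range.

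Among the members tested, Rps4x was the only one whose ratio rose in either genotype (82 members in KO and 81 in WT, where 1.92% and 1.99% of all genes tested rose). Of all X-linked genes tested, 167 of 308 rose in KO and 157 of 299 in WT. In WT the autosomal Rpl37a was the only member called lower (adjusted p = 0.0278 in edgeR, where 0.256% of all genes fell). It had 0 reads from genome 2 in WT day 7 and 19 in WT day 0, beside 39090 and 56899 reads from genome 1. The call rests on these few reads and was lost when any 1 library was left out. Rpl10 rested on few resolved reads, between 93 and 455 per library. Its genome 2 share averaged 58.6% ± 8.90 in KO day 7 and 60.2% ± 3.36 in WT day 7, against 38.3% ± 5.78 in KO day 0 and 37.6% ± 10.7 in WT day 0 (SD, n = 3 each), and its ratio did not pass the test (log2 differences 1.21 and 1.35, adjusted p = 0.40 and 0.27). Rpl36a and Rpl39 had fewer than 20 resolved reads in at least 1 library and were not tested between the days. A further 16 autosomal members had 30% to 70% of their reads from genome 2 and at least 1000 resolved reads in every library. In these the median log2 difference between the days was -0.80 for genome 1 and -0.90 for genome 2 in KO, and -0.68 and -0.77 in WT.
The group means of their genome 2 shares ranged from 39.8% to 69.1% in KO day 7 and in WT day 7. They ranged from 39.5% to 69.5% in KO day 0 and from 38.7% to 70.2% in WT day 0. These members were chosen by that share, which in part sets the range. The largest shift of a single member between the days was that of Rpl3, 5.76 points in KO and 9.08 points in WT. For 35 autosomal members, under 5% of the resolved reads came from genome 2 and for 9 over 95%, and whether such shares reflect the parental copies or the positions at which reads were assigned was not tested.

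Of the paralogs, 3 were at or near 0 at day 7. Rpl10l, an intronless copy of the X-linked Rpl10 known for its role in male germ cells (chr12:66283379-66284401, 84.8% identical in coding sequence), had 0.182, 0.642 and 0 CPM in KO day 7 and 0.185, 0.193 and 0.232 CPM in WT day 7. It had 55.6, 60.7 and 59.8 CPM in KO day 0 and 58.9, 61.6 and 60.2 CPM in WT day 0. Summed over 3 libraries, 26 counts at day 7 stood against 5716 at day 0 in KO, a 224-fold ratio of day 0 to day 7 (95% interval from counting 153 to 344), and 27 against 5823 in WT, a 306-fold ratio (210 to 464). Rpl39l, whose coding sequence is printed above beside that of Rpl39 (chr16:10170226-10174911), had 0, 0.169 and 0 CPM in KO day 7 and 0.347, 0 and 0 CPM in WT day 7, against 34.5, 38.8 and 44.1 CPM in KO day 0 and 41.9, 53.8 and 48.2 CPM in WT day 0. The sums were 5 against 3870 counts in KO and 15 against 4722 in WT. Rpl3l, the copy of Rpl3 used in striated muscle (chr17:24727820-24736143), was low throughout, with no count in any day 7 library and 1.49 to 2.22 CPM in KO day 0 and 1.318 to 2.05 CPM in WT day 0. Against a floor of 3 counts per group it was at least 58.1-fold lower at day 7 in KO and at least 78.4-fold lower in WT. The parents Rpl10, Rpl39 and Rpl3 had at least 194 CPM in every day 7 library.

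**Figure D4:**
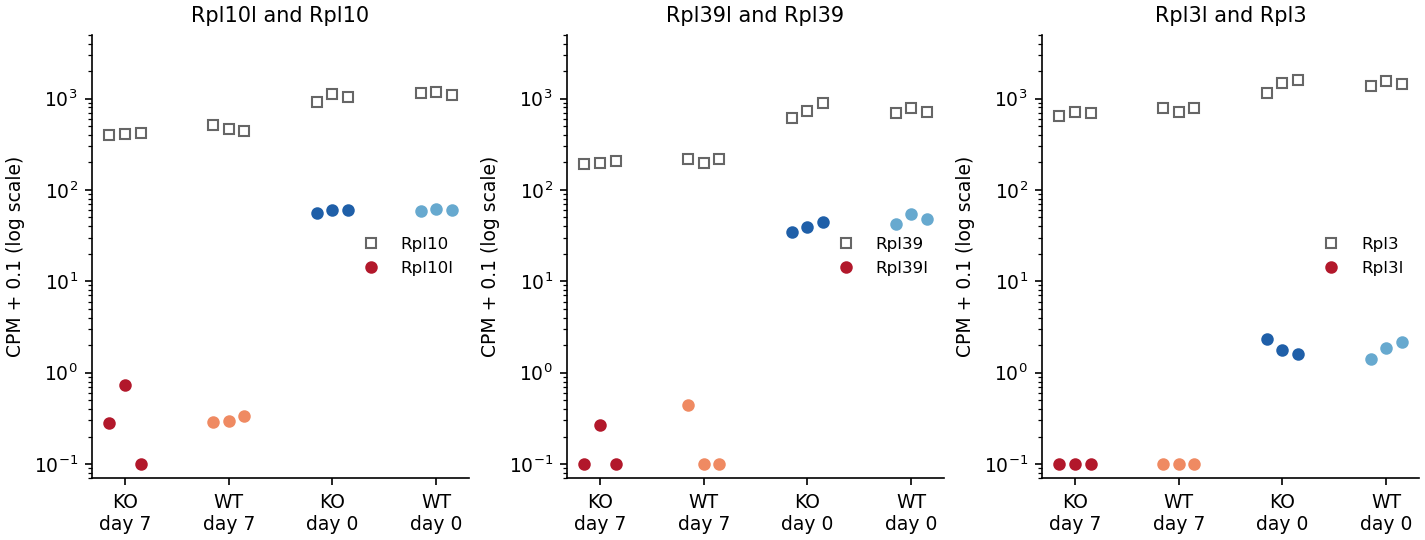
CPM + 0.1 on a log axis of 3 paralogs (filled circles) and their parent genes (open squares) in each library, with groups from left to right KO day 7, WT day 7, KO day 0 and WT day 0. The paralogs lie at or near 0 at day 7, while no parent is below 194 CPM.

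The other paralogs followed the common fall. Rpl22l1 had 23.1, 21.9 and 20.3 CPM in KO day 7 and 24.3, 20.98 and 26.4 CPM in WT day 7, against 37.0, 44.0 and 47.8 CPM in KO day 0 and 49.9, 58.9 and 52.6 CPM in WT day 0. Its log2 difference was -0.98 in KO and -1.17 in WT. Rpl36al, an autosomal copy of Rpl36a (87.9% identical), fell by 1.23 in KO and 1.24 in WT, Rps27l by 0.98 and 0.83, and Rpl7l1 by 0.79 and 0.70. Rps27rt, with the same coding sequence as Rps27, fell by 1.19 and 1.17, but reads within that sequence cannot be told from those of Rps27. The parts of the transcripts outside it were not compared. Rps4l, a transcribed processed pseudogene on chromosome 6 that matches Rps4x over 792 aligned columns at 79.8%, fell most of the members with a mean log2 CPM above 5, by 2.43 in KO and 2.52 in WT. It had 193, 181 and 187 CPM in KO day 7 and 235, 205 and 192 CPM in WT day 7, against 860, 1122 and 1032 CPM in KO day 0 and 1108, 1269 and 1240 CPM in WT day 0. How far reads of Rps4x were counted there was not tested.

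Transcripts were listed if their share of the counts of their gene moved by at least 8 points the same way in both genotypes. They also needed a minimum total count and no overlap between the day 7 and day 0 libraries of either genotype. Transcripts of 4 members met these conditions, Rpl12, Rps24, Rpl22 and Rpl31. Rpl12, Rpl22 and Rpl31 were chosen after their values were seen, and Rps24 is one of the genes named for a known trait, alternative exons at its 3′ end. Rpl12-201, with the longer first exon printed above, took 27.9%, 23.2% and 27.1% of the counts of Rpl12 in KO day 7 and 29.6%, 26.4% and 25.1% in WT day 7, against 10.9%, 12.8% and 9.53% in KO day 0 and 13.2%, 9.19% and 7.76% in WT day 0. That the days do not overlap was a condition of the choice. The main transcript Rpl12-203 fell by 1.26 in KO (adjusted p = 3.71e-05) and 1.12 in WT (adjusted p = 7.93e-05) on the log2 scale. The level of Rpl12-201 had positive differences: its log2 difference was 0.25 in KO (SE 0.20, adjusted p = 0.439) and 0.64 in WT (SE 0.20, adjusted p = 0.0454). The WT call was lost with the replicate number as a block (adjusted p = 0.059), without the filter on low counts (0.0779) and without any of 4 libraries, WT day 7 replicates 1 and 2 and WT day 0 replicates 2 and 3 (0.0999 to 0.155). Rps24-202, which ends at the stop codon in the 20-base exon, took 20.94%, 23.1% and 20.97% of the counts of Rps24 in KO day 7 and 22.4%, 21.5% and 22.0% in WT day 7, against 10.96%, 12.5% and 14.5% in KO day 0 and 15.1%, 13.9% and 13.7% in WT day 0. The level of Rps24-202 did not rise in KO, with a log2 difference of -0.37 (adjusted p = 0.247 in edgeR). Without KO day 0 replicate 1 it was -0.60 (adjusted p = 0.0174 in edgeR). Its level in WT is not reported here. Rps24-210, without that exon, averaged 58.5% ± 0.88 in KO day 7 and 61.1% ± 0.84 in WT day 7, against 68.0% ± 3.57 in KO day 0 and 71.1% ± 1.65 in WT day 0 (SD, n = 3 each). These are shares of StringTie's estimated counts, which assign reads common to several transcripts by a model.

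In Rpl22 and Rpl31, both large subunit genes, the shares spread more between replicates. Rpl31-201 took 52.6%, 68.2% and 42.7% of the counts of Rpl31 in KO day 7 and 65.1%, 59.1% and 58.7% in WT day 7, against 72.9%, 74.9% and 69.8% in KO day 0 and 69.8%, 73.9% and 74.2% in WT day 0. Rpl22-205, a transcript with no annotated coding sequence, took 2.86%, 3.57% and 2.72% of the counts of Rpl22 in KO day 7 and 3.90%, 3.76% and 2.07% in WT day 7, against 16.2%, 13.8% and 8.63% in KO day 0 and 10.3%, 10.9% and 23.7% in WT day 0. Both were lower at day 7, and that the days do not overlap was again a condition of the choice. The coding transcript Rpl22-208 took 91.3%, 90.1% and 90.9% in KO day 7 and 87.8%, 90.4% and 90.8% in WT day 7, against 75.2%, 78.5% and 83.99% in KO day 0 and 82.5%, 0.906% and 68.0% in WT day 0. Its WT difference of 39.2 points rests mostly on WT day 0 replicate 2.

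**Figure D5:**
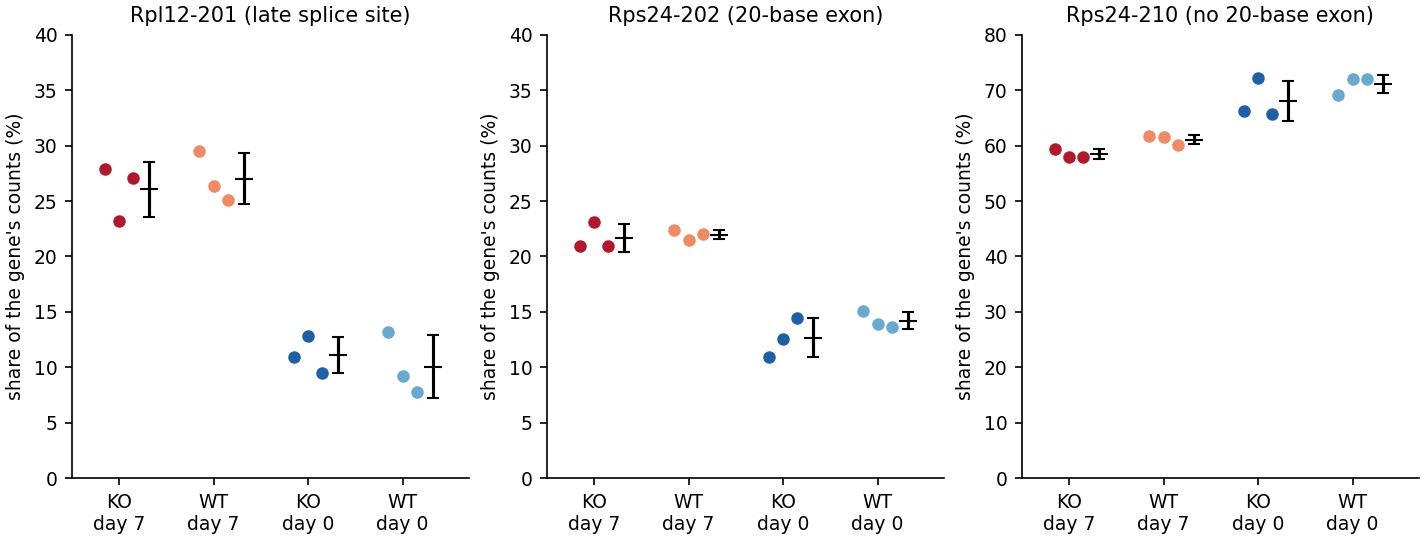
Share (%) of the counts of its gene taken by Rpl12-201, Rps24-202 and Rps24-210 in each library, with the mean ± SD of 3 beside the points. The first 2 are higher and the last is lower in the day 7 libraries than in all day 0 libraries of the same genotype. Such a separation was a condition for choosing Rpl12-201 and Rps24-210.

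Over all transcripts of the members, 160 of 437 tested fell in KO and none rose, where 10.4% of 45908 transcripts fell. In WT 151 fell and 2 rose, where 10.5% fell and 12.3% rose. Transcripts annotated for nonsense-mediated decay, 25 in number, together took 3.82% ± 0.25 of the members' transcript counts in KO day 7 and 3.96% ± 0.30 in WT day 7, against 2.55% ± 0.17 in KO day 0 and 2.64% ± 0.17 in WT day 0 (SD, n = 3 each). The share of transcripts with a retained intron was 9.30% ± 0.48 in KO day 7 and 8.36% ± 1.57 in WT day 7, against 9.27% ± 0.50 in KO day 0 and 8.35% ± 0.35 in WT day 0 (SD, n = 3 each), so the days differed by less than the spread.

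In KO 5 members and in WT 3 did not pass the test between the days, and most of these had erratic values between replicates. Rps2 had 594, 178 and 547 CPM in KO day 7 and 620, 627 and 453 CPM in WT day 7, against 311, 837 and 271 CPM in KO day 0 and 483, 702 and 351 CPM in WT day 0. Rpl7a had 207, 171 and 10.9 CPM in KO day 7, where every WT day 7 library had 186 to 200 CPM. At day 0 it had 204.5, 213.8 and 281.8 CPM in KO and 271.2, 252.4 and 262.2 CPM in WT. Its WT libraries thus did not overlap between the days, and the erratic value lies in KO day 7. Rpl30 had 41.5, 125 and 35.2 CPM in KO day 7 (log2 difference -0.50, adjusted p = 0.373) and passed in WT. Rpl29 and the pseudogene Rpl32l (96.0% identical to Rpl32) passed in WT and not in KO. Rpl41, the shortest ribosomal protein, had 2790 CPM in KO day 0 replicate 1 against 1145 to 1390 CPM in the other day 0 libraries. It passed in KO (log2 difference -1.28, and -0.79 with adjusted p = 0.0116 in edgeR without that library) but not in WT (-0.72, adjusted p = 0.0569). In WT 4 alternatives brought it past the threshold. Rpl17 passed narrowly (adjusted p = 0.0259 in KO) and lost the KO call without any 1 of 3 libraries, KO day 7 replicates 1 and 3 and KO day 0 replicate 2. The table lists 307 pseudogenes with symbols of ribosomal protein genes followed by ps, which took 0.888% of all counts in KO day 7 and 0.959% in WT day 7, against 1.57% in KO day 0 and 1.65% in WT day 0. How reads were divided between members and near-identical pseudogenes is not given in the sources used here, and values of single members with such copies are uncertain.

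No member passed the test between libraries labelled knockout and WT on either day. In simulated data the test at day 7 recovered 13 of 66 changed genes (19.7%) whose median absolute log2 difference was 0.994. The changed genes were drawn at random from all genes above a minimum count, and not from the members alone. Between the days in KO the like simulation recovered 36 of 66 (54.5%) at a median of 0.981. Most members are abundant, so these values do not give how often such a difference in a member would be missed. The absence of calls by itself does not show that the members were unchanged. At day 7 the median log2 difference was -0.23, 84 of 91 members were below 0, and 39 had an unadjusted p under 0.05 (42.9%, against 8.18% of all genes tested). The CPM of all 3 KO libraries lay below all 3 WT libraries for 63 members, where this held for 12.8% of all genes tested. In edgeR 0.026% of all genes passed. DESeq2 called 1 member, where it called 0.688% of all genes. Among the members below 0 with the smallest p in edgeR, Rpl27, a large subunit protein, had a log2 difference of -0.28 (SE 0.08, adjusted p = 0.427) and Rps3a1, a small subunit protein, of -0.22 (SE 0.06, adjusted p = 0.455). Rpl30, Rpl10l and Rpl32l had the smallest p of those above 0 (log2 differences 0.82, 0.41 and 0.23) and each turned below 0 under 1 alternative. With library totals in place of TMM factors the median was -0.16, and without WT day 7 replicate 1 it was also -0.16. Other protein-coding genes shorter than 1000 bases had a median of -0.16 at day 7, and those of 2000 bases or more of -0.01. The part of transcript length was not tested.

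At day 0 the median was -0.14, 83 of 91 members were below 0, 7 had an unadjusted p under 0.05 (7.69%, against 11.9% of all genes tested), and 10 had all KO libraries below all WT libraries, where 7.22% of all genes tested had this. The smallest adjusted p was 0.238, and 0.13% of all genes passed. DESeq2 also called no member, where 2.04% of all genes passed, and gave 8 an unadjusted p under 0.05 (8.79%, against 7.83% of the 34040 genes it tested without a filter on low counts). Without KO day 0 replicate 1 the median was -0.02 and 1 member had an unadjusted p under 0.05 (1.10%, against 8.63% of all genes), so the median at day 0 rests mostly on that library. The 3 members with the smallest p below 0 were Rpl7 (-0.28, SE 0.08), Rpl15 (-0.24, SE 0.09) and Rpl22l1 (-0.33, SE 0.13), with adjusted p = 0.238, 0.332 and 0.350 in edgeR. Without that library they were at -0.26, -0.21 and -0.24. Above 0 they were Rpl41, Rps27l and Rpl10a (0.53, 0.21 and 0.07, and 0.06, 0.29 and 0.10 without that library). Other genes shorter than 1000 bases had a median of -0.18. For the change between the days in KO against that in WT, no member passed the interaction test in edgeR. The median was -0.09, where that of all genes tested was -0.05. An unadjusted p under 0.05 was found for 3 members (3.30%, against 6.86% of all genes tested). The smallest adjusted p was 0.615, where 0.026% of all genes passed. Without KO day 0 replicate 1 the median was -0.18, where that of all genes was -0.01. In that fit 21 members had an unadjusted p under 0.05 (23.1%, against 7.39% of all genes). DESeq2 called no member there, where it called 0.74% of all genes, and gave 1 an unadjusted p under 0.05 (4.75% of the genes it tested had one). Allelic ratios of the members did not pass the test between KO and WT on either day (0.00952% of all genes passed at day 0 and 0% at day 7). On each day 3 members had an unadjusted p under 0.05, of 85 tested at day 0 and 81 at day 7, where 1.86% and 2.18% of all genes had one. For Rps4x the log2 ratio differed by 0.00 at day 0 (SE 0.11) and by -0.19 at day 7 (SE 0.12).

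Genes around the pathway moved in both directions between the days, and none of the lists held a gene that passed between KO and WT or in the interaction test. The counts of each list stand beside 31.1% of all genes that rose and 32.3% that fell in KO, and 32.9% that rose and 32.1% that fell in WT, and nothing particular to a list is read from them. Among ribosome components outside the symbol rule, Fau, made as a fusion with a ubiquitin-like protein, fell by 1.04 in KO and 0.92 in WT, and the scaffold Rack1 by 0.54 and 0.42. Of 16 other genes with TOP mRNAs 13 fell in KO, with a median of -0.45, and 12 fell and 1 rose in WT, with a median of -0.41. Eef1b2, an elongation factor subunit, fell by 1.08 in KO and 1.01 in WT, and Npm1, a nucleolar chaperone of ribosome assembly, by 0.79 and 0.70. Eef2, the translocation factor, rose in WT (0.37, adjusted p = 0.00135) and had a log2 difference of 0.16 in KO (adjusted p = 0.0843). Of 12 genes of mTORC1 and its TOP regulators 4 rose and 3 fell in KO, and 6 rose and 1 fell in WT. Eif4ebp1, a repressor of translation initiation that mTORC1 inactivates, fell by 1.55 in KO and 1.34 in WT, and the kinase gene Rps6kb1 rose by 0.58 and 0.80. Larp1, which binds TOP mRNAs, had log2 differences of -0.11 and -0.26 and did not pass.

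Of 9 regulators of transcription examined, 2 rose and 1 fell in each genotype. Gabpa, the DNA-binding subunit of the factor whose core letters were counted in the promoters, fell by 0.68 in KO (adjusted p = 0.00145) and 0.37 in WT (adjusted p = 0.0371). Yy1 rose by 0.38 in KO and 0.60 in WT, and Tbpl1, a paralog of the TATA-binding protein, by 1.12 and 1.20. Myc had log2 differences of 0.01 and -0.14 and did not pass. Of 10 chaperones and importers of ribosomal proteins 6 fell in each genotype, among them Bccip (by 1.24 in KO and 1.19 in WT), while 2 rose in KO and 1 in WT. Of 8 genes of ribosome quality control and the Trp53 checkpoint 4 rose and 2 fell in KO, and 5 rose and 2 fell in WT. Trp53 fell by 1.2997 in KO and 1.26 in WT, whereas its target Cdkn1a rose by 1.319 and 1.904. In the same libraries mitochondrially encoded genes took 3.38% of the counts in KO day 7 and 3.01% in WT day 7, against 4.12% in KO day 0 and 3.61% in WT day 0. A list of 5 fibroblast markers summed to 1044 to 1077 CPM in KO day 7 and 1307 to 1504 CPM in WT day 7, against 28.1 to 31.0 CPM in KO day 0 and 21.9 to 29.2 CPM in WT day 0, with 1 of the 5 at 0 in every day 0 library. Their part in the members' change was not tested.

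Levels per kilobase of transcript differed widely among members. Length was the mean over the transcripts of a gene, weighted by their estimated counts. The uncertainty given above for members with near-identical pseudogenes holds for these levels too. The highest was that of Rps26, a small subunit protein, with 2881 ± 119 CPM per kilobase in KO day 7 and 3322 ± 234 in WT day 7, against 5254 ± 1068 in KO day 0 and 5686 ± 145 in WT day 0 (SD, n = 3 each). Rps15 followed with 4682 ± 1044 in KO day 0 and 5505 ± 286 in WT day 0, within the spread of Rps26 in KO day 0. Rplp1 and Rpl13, at 4498 ± 153 and 4494 ± 156 in WT day 0, lay within each other's spread. At the low end in WT day 0 stood Rpl3l (1.24), Rpl21 (11.98), Rpl32l (21.3), Rpl10l (58.9) and Rpl39l (60.3 CPM per kilobase). Across the 12 libraries the summed level of the members was most like that of Gadd45gip1, Polr2i, Dctpp1, Snrpd2 and Lsm3 among 7345 other genes with a mean log2 CPM of at least 4 (Pearson r of log2 CPM 0.997 each). This is a description over libraries that separate by day. Gadd45gip1 averaged 120.5 CPM in KO day 7 and 156 CPM in WT day 7, against 319 CPM in KO day 0 and 386 CPM in WT day 0.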

How the data were processed

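The 12 libraries were polyA RNA-seq of ES cells. The submitters' processing notes name HISAT2 2.1.0 and StringTie 1.3.3, beside FastQC 0.11.3, SAMtools 0.1.19, Trimmomatic 0.36 and DESeq2 1.32.0, and the builds GRCm38 and mm10. Settings, strand use and annotation release were not stated there. Estimated counts per gene and per transcript, and per gene for reads assigned to genome 1 or genome 2, were deposited by the authors as whole numbers. The labels do not say which strain is genome 1. These were tested as deposited.

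Samples were grouped by genotype and timepoint. A further treatment label (LIF or None) does not follow the day and was used only as a covariate in an alternative. Genes passing edgeR's filterByExpr (19235) were scaled by TMM and tested with edgeR 4.0.16's quasi-likelihood test over all 12 libraries (R 4.3.3, limma 3.58.1), with Benjamini-Hochberg adjusted p at most 0.05. DESeq2 1.42.0 was an alternative. Allelic ratios were tested in edgeR with each library as a block, for genes with at least 20 resolved reads in every library of the comparison. CPM use TMM-scaled library sizes. Of 55487 gene IDs 99.38% matched GENCODE M21, which gave coordinates (GRCm38). Scripts were checked on simulated data. Figures used Python 3.11.15 and matplotlib 3.10.9.

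The members and all lists were chosen with earlier results of these data known. Named members were the X-linked ones, paralogs, members with a known role or use, those with the largest called changes or, where fewer than 3 passed, the 3 smallest p each way, the extremes of level per length, and the 5 genes most like the members' sum. The comparison by transcript length was added after seeing the data. Replicate libraries differed by more than sampling noise. Intervals and floors cover counting error only. Some genes that these rules name are not reported here.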

Additional observations from a re-analysis of the deposited data

How the results depend on the processing

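Among the values of the main results under alternatives, 222 stayed within the tolerance and 20 moved. Part of the moved values are shares of counts under constructions that change a share by design, so this tally does not measure robustness. Against 0 in edgeR, DESeq2 called 1 member between KO and WT at day 7, and with library totals only the median there was -0.16. With limma and a replicate block 1 member passed the allelic test between the days in WT, against 2. Counting the pseudogenes with the members gave shares of 6.845% in KO day 7, 7.59% in WT day 7, 12.7% in KO day 0 and 13.5% in WT day 0. Without the 5 most abundant members the shares were 4.82%, 5.38%, 9.34% and 9.99% in the same order, and without mitochondrially encoded genes the KO day 7 share was 6.17%. The cause was not tested beyond these constructions.

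Leaving out each library in turn gave 85 to 87 members called between the days in KO (median -1.08 to -0.93) and 87 to 88 in WT (-0.95 to -0.87). No member was called between KO and WT (medians -0.20 to -0.02 at day 0 and -0.26 to -0.16 at day 7) or in the interaction (-0.18 to -0.03). Allelic calls were 1 to 2 in KO and 1 in WT. Transcript calls were 122 to 156 in KO and 109 to 129 in WT. Shares ranged from 5.93% to 5.97% in KO day 7, 6.42% to 6.78% in WT day 7, 10.8% to 11.8% in KO day 0 and 11.6% to 12.1% in WT day 0. The percentages of all genes and transcripts called with a library left out are not reported here.

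Between KO and WT, 4 single members reversed. Rpl30 at day 7 was -0.0389 with its pseudogenes counted. With 1 library left out, Rpl32l at day 7 ranged from -0.00169 (without KO day 7 replicate 1) to 0.37, Rpl10l at day 7 from -0.98 (without KO day 7 replicate 2) to 0.97, and Rpl10a at day 0 from -0.0915 (without KO day 0 replicate 3) to 0.18. The cause was not tested.

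Same-numbered libraries correlated by -0.024 to 0.103 in their deviations, and libraries with different numbers by -0.0704 to 0.0628. Such weak correlations cannot decide whether same-numbered libraries share an origin. With the replicate number as a block, 86 members passed between the days in KO and 89 in WT, and none between KO and WT or in the interaction. Between the days 143 and 130 transcripts passed in KO and WT. The shares of all genes and transcripts that passed with this block are not reported here. These counts are therefore read only beside those of the main fit.

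Reads shared with paralogs and pseudogenes, and few resolved reads for Rpl10, Rpl36a and Rpl39, limit single members.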
